A study of Mus musculus with 6 samples.

Results

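The genes of Wnt ligands, their receptors and their secreted modulators were taken by symbol from an RNA-seq table of CP cells, as the Wnt and Frizzled families, processing factors, co-receptors, secreted antagonists, Dickkopf (Dkk) and Kremen proteins, and R-spondins with their receptors and ligases. The rule matched 56 of the 25701 genes in the table (57 symbols were listed, and Dkk4 had no row). Of these, 52 had a mean of at least 10 normalized counts over the 6 libraries and were tested, among 15372 genes tested in all. Wnt7a, Wnt8b, Wnt10a and Wif1 fell below that level and are given by their values only.

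Wnt proteins are secreted, lipid-carrying signals. Porcn attaches the lipid, Wls carries the ligand to the cell surface, and Frizzled receptors bind it with the co-receptors Lrp5 and Lrp6 to stabilize β-catenin, or with Ror and Ryk receptors to steer cell polarity and movement. Secreted antagonists trap the ligand or block the co-receptor, while R-spondins and Lgr receptors keep Frizzled at the surface by holding back the ligases Znrf3 and Rnf43. In the mouse embryo, Wnt signalling is needed to form the primitive streak and mesoderm, and it is later lowered where mesoderm takes the cardiac path.

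The study asked what the zinc finger and homeobox protein Zhx1 does as mouse embryonic stem cells (ESCs) become cardiac progenitors (CPs). PolyA RNA of CP cells was sequenced after differentiation of 46C, a mouse ESC line that carries a green fluorescent reporter at the Sox1 gene, in 3 libraries labelled Zhx1-KO and 3 of 46C-Ctrl. The Zhx1 knockout had been made by CRISPR/Cas9 with guide RNAs aimed at the start and stop sites of transcription, and both groups went through the same serum-free differentiation, first with BMP4, Activin A and VEGF and then with VEGF, FGF10 and bFGF, with ascorbic acid throughout. The statistics are described as of independent experiments, but no source used here says whether the knockout libraries came from 1 clone or from separate cultures, so p-values reflect the spread among these libraries alone, and that spread may be technical.

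Zhx1 itself had 225, 325 and 308 normalized counts (reads per gene divided by a factor for each library) in the libraries labelled Zhx1-KO, against 460.3, 181 and 457 in 46C-Ctrl. The groups overlapped (log2 fold change -0.25, with a standard error, SE, of 0.35, adjusted p = 0.579, limma), and without 46C-Ctrl replicate 2 the fold change was -0.70 (adjusted p = 0.0121, limma). The value covers the whole gene, and where in the gene its reads lie was not tested. With all libraries it did not separate the groups, so it does not bear out the labels. Every direction below is that of the libraries so labelled. The libraries held 13769967 to 15940874 reads in genes. 46C-Ctrl replicate 2 stood apart, with 2.77% of its values from mitochondrial genes against 1.72% to 1.87% in the other 5 libraries. Of 6 cardiac progenitor markers, 5 were lower and Isl1 did not pass, with Tbx5 in the test only through 46C-Ctrl. Of all genes tested, 26.4% were lower by the same test, described below. The summed level of the markers was 1081 to 1159 in the libraries labelled Zhx1-KO, against 7770 to 8527 in 46C-Ctrl. Most of the 46C-Ctrl sum was Hand1, with a mean of 198 in the libraries labelled Zhx1-KO and 5774 in 46C-Ctrl. The means of Hand2 (195 against 1115), Mef2c (226 against 463) and Nkx2-5 (327 against 575) changed less. Tbx5 was nearly absent, at 3.02, 1.01 and 1.76 in the libraries labelled Zhx1-KO, against 66.3, 56.9 and 63.3 in 46C-Ctrl.

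More Wnt ligands were lower than higher in the libraries labelled Zhx1-KO, while more Frizzled receptors and ligand-binding antagonists were higher than lower. With limma on log2(value + 1), and an adjusted p under 0.05 over all genes tested as the call, 17 of the 52 were higher in the libraries labelled Zhx1-KO, 23 were lower and 12 did not pass. This is 76.9% of them, beside 52.0% of all genes tested, of which 25.6% were higher and 26.4% lower. By class, the share called ran from 44.4% (R-spondins, Lgr receptors and ligases) to 100% (ligand processing, Frizzled receptors and secreted antagonists). Of the 17 higher genes, 4 (Wnt1, Wnt16, Sfrp4 and Rspo4) had a mean under 10 in 46C-Ctrl. Without them 13 were higher, and all 23 lower genes had a mean of at least 10 in both groups. The 3 libraries of one group lay wholly above or below the 3 of the other for 42 of the 52 (19 higher and 23 lower), beside 60.8% of all genes. At a change of 2-fold or more, 10 were higher, the same 4 among them, and 11 lower, beside 17.6% of all genes in either direction. Their median log2 fold change was -0.16, against 0.0088 for all genes tested. Without 46C-Ctrl replicate 2 the counts were 18 higher and 22 lower. RNA of whole cultures was measured, so fewer cells of a type and less RNA per cell cannot be told apart.

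**Figure D1:**
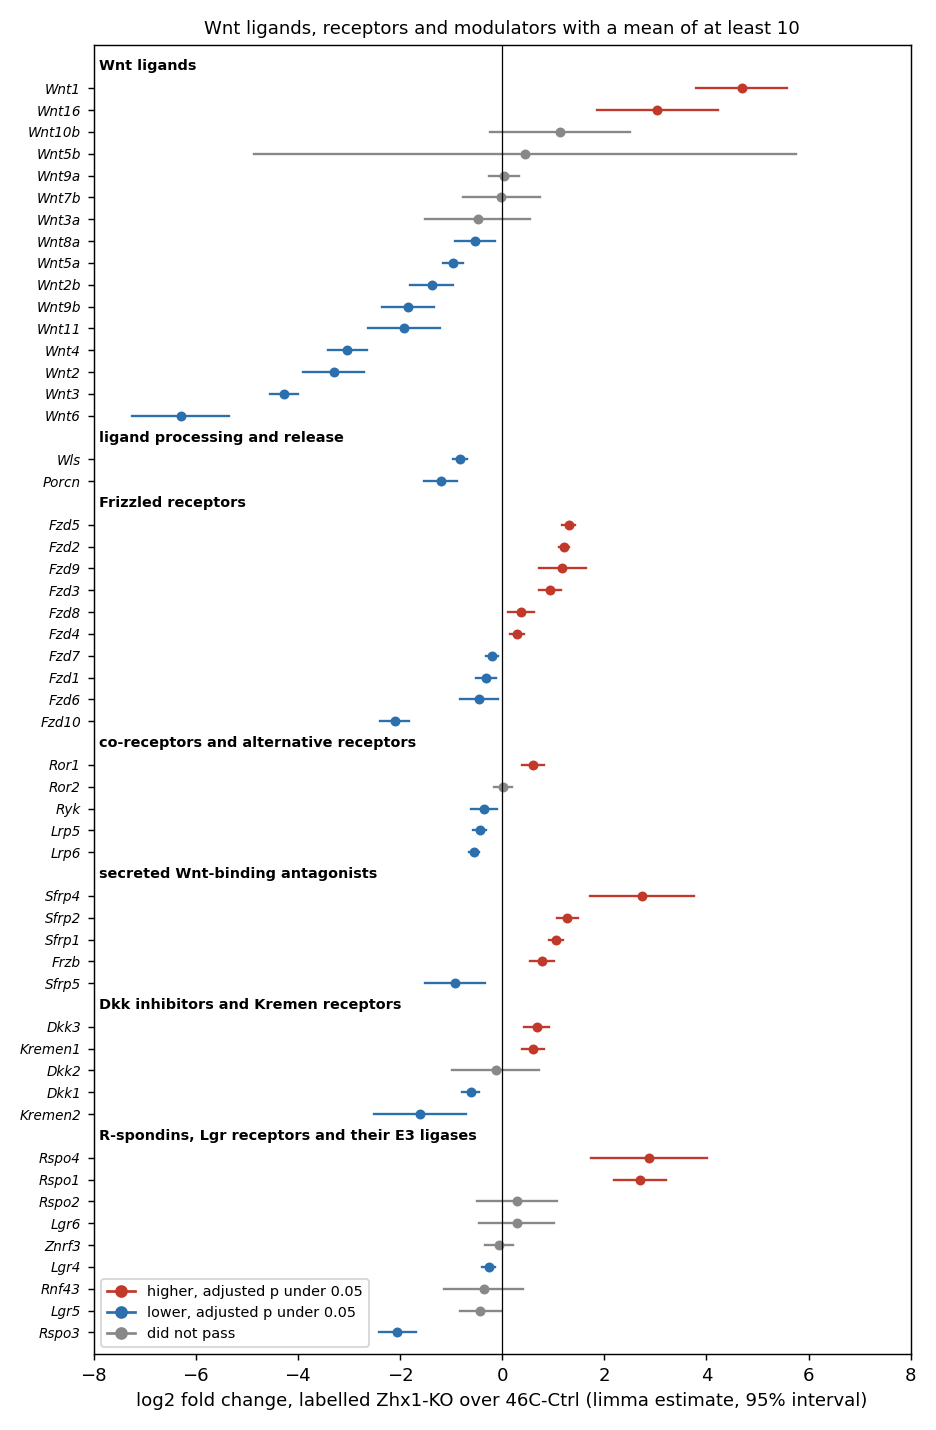
Log2 fold change of each of the 52 tested genes, in the libraries labelled Zhx1-KO over 46C-Ctrl (limma estimate on log2(value + 1), bars are 95% intervals, 3 libraries a group), in 7 classes, with red points higher and blue points lower at an adjusted p under 0.05 and grey points not past it. Wnt ligands run from -6.29 (Wnt6) to 4.69 (Wnt1), and 9 of 16 are blue, while 6 of 10 Frizzled receptors are red.

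More ligands were lower than higher. Among the 16 tested, 2 were higher and 9 lower, with 5 not past the test and a median log2 fold change of -0.75, and of the 9 lower ones the call of Wnt8a was lost in 5 of 18 other settings. Divided by exon length, so that genes can be set side by side, the ligands together summed to 346 to 434 normalized counts per kb in the libraries labelled Zhx1-KO, against 1158 to 1365 in 46C-Ctrl. The leading ligand of 46C-Ctrl was Wnt6, and in the libraries labelled Zhx1-KO it was close to absent.

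The promoters of 5 ligands are shown here. Wnt6, Wnt1 and Wnt3 had the largest changes among the tested ligands, Wnt9b is the neighbour of Wnt3 and was lower with it, and Wnt11 was chosen after the motif search because its window held the TCF/LEF core. Each is the 250 bases before a RefSeq start in GRCm38.p6, read 5′ to 3′ on the gene's strand. Capitals mark the GC box GGGCGG, the TATA box TATAAA and the TCF/LEF core CTTTGAT, which is the motif bound by the factors that β-catenin acts through, on either strand. Matches can overlap, so runs of capitals may hold more than 1 motif.
Wnt6, chromosome 1, plus strand, 74771642 to 74771891: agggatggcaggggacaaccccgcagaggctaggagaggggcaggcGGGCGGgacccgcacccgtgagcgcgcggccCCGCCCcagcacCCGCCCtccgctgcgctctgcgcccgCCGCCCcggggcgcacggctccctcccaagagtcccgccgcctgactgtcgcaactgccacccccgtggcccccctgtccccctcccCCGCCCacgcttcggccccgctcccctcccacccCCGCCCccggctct
Wnt3, chromosome 11, plus strand, 103773925 to 103774174: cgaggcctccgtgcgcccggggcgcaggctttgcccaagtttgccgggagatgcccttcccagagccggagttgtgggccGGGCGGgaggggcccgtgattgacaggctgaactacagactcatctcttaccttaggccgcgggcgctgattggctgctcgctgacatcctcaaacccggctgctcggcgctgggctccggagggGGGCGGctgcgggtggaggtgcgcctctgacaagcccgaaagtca
Wnt9b, chromosome 11, minus strand, 103749822 to 103750071: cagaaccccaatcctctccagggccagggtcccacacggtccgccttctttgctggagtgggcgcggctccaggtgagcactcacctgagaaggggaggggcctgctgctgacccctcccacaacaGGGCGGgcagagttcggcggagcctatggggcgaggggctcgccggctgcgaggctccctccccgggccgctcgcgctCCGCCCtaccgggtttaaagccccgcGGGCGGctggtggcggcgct
Wnt1, chromosome 15, plus strand, 98789607 to 98789856: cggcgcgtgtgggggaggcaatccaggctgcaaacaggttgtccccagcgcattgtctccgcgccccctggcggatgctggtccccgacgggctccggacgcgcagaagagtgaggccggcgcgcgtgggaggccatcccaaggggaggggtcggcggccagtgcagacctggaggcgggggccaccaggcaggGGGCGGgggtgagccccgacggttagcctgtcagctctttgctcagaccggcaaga
Wnt11, chromosome 7, plus strand, 98834862 to 98835111: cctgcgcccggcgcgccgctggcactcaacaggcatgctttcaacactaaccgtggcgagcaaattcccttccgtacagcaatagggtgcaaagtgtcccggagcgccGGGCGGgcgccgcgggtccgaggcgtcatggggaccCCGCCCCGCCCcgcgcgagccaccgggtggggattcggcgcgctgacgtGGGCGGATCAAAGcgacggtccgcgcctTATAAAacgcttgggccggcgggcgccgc

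These windows were rich in G and C, at 68.0% to 79.6% of bases, and all 5 held GC boxes, 6 of them before Wnt6. The Wnt11 window held the TCF/LEF core for which it was chosen 51 bases before its start, and it also held a TATA box 29 bases before it. The RefSeq start of Wnt3 lies a few bases inside its GENCODE gene, so the end of that window is in its first exon. RefSeq promoters of 37 of the 56 genes were used, 41 promoters in all. Promoters on chromosome 18, where Wnt8a and Fzd8 lie, were left out for the Wnt genes. They were kept in the larger sets given beside them, so the sets were not built alike. Of the 41, 2 held the TCF/LEF core (Wnt11 and a downstream start of Wnt5b), or 4.88%, beside 2.26% of the promoters of all genes tested and 3.21% of all promoters in the table. The T-box motif TCACACC was in 0 of the 41, beside 2.83% and 3.33%. The GC box was in 29 of the 41, or 70.7%, beside 57.2% and 32.7%, and the TATA box in 6, or 14.6%, beside 6.40% and 12.4%. These are matches of letters within short windows and are given as a description.

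Wnt6, a ligand of surface ectoderm and other epithelia in the embryo (chromosome 1, 74771892 to 74785322), had 5.04, 12.1 and 20.2 normalized counts in the libraries labelled Zhx1-KO, against 1019, 849 and 938 in 46C-Ctrl. The groups lay far apart, and the highest library labelled Zhx1-KO was well under every control library. The mean was 12.5 ± 7.61 in the libraries labelled Zhx1-KO and 935 ± 85.1 in 46C-Ctrl (SD, n = 3 each), and the log2 fold change was -6.29 (SE 0.41, adjusted p = 1.54e-05, limma). Fold changes here are on the log2(value + 1) scale, where the change of a low gene is understated. Wnt10a lies 6.193 kb downstream of Wnt6 on the same strand, with no other coding gene between them. It was below the level for testing, at 0, 0 and 1.76 in the libraries labelled Zhx1-KO, against 11.7, 10.4 and 14.8 in 46C-Ctrl, and the groups did not overlap.

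Wnt3, the ligand needed to form the primitive streak in mice (chromosome 11, 103774150 to 103817957), had 34.3, 32.4 and 36.1 normalized counts in the libraries labelled Zhx1-KO, against 693, 630.5 and 718 in 46C-Ctrl. Both groups were tight, and they did not overlap. The log2 fold change was -4.27 (SE 0.12, adjusted p = 3.77e-07, limma). Its neighbour Wnt9b, a ligand of kidney and facial development, starts 24.328 kb away on the opposite strand with no coding gene between (chromosome 11, 103727364 to 103749821). Wnt9b had 29.2, 28.3 and 22.00 in the libraries labelled Zhx1-KO, against 94.6, 85.9 and 114 in 46C-Ctrl, with no overlap. It fell by 1.85 on the log2 scale (SE 0.22, adjusted p = 0.000304, limma). The other 1179 tested genes of chromosome 11 had a median log2 fold change of 0.42, so Wnt3 and Wnt9b ran opposite to most of their chromosome.

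Wnt2, a ligand of early heart and lung mesoderm (chromosome 6, 17988940 to 18030585), had 16.1, 10.1 and 14.96 normalized counts in the libraries labelled Zhx1-KO, against 143, 167 and 119 in 46C-Ctrl. The control libraries were higher without overlap, and the log2 fold change was -3.30 (SE 0.26, adjusted p = 3.80e-05, limma). Wnt4, a ligand of kidney and ovary development (chromosome 4, 137277489 to 137299726), had 59.5, 82.9 and 81.9 in the libraries labelled Zhx1-KO, against 635, 532 and 678 in 46C-Ctrl. These groups, too, were apart, and the log2 fold change was -3.03 (SE 0.16, adjusted p = 6.46e-06, limma). Wnt11, a ligand of cell movement and heart development (chromosome 7, 98835112 to 98855195), had 66.5, 28.3 and 40.5 in the libraries labelled Zhx1-KO, against 184, 139.8 and 171 in 46C-Ctrl. The spread among the libraries labelled Zhx1-KO was wide, yet every control library was higher, and Wnt11 fell by 1.92 on the log2 scale (SE 0.30, adjusted p = 0.00126, limma).

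Wnt5a, the ligand best known for signalling through Ror receptors without β-catenin (chromosome 14, 28504750 to 28527448), had the highest mean of the ligands before division by length. It had 423, 467 and 443 normalized counts in the libraries labelled Zhx1-KO, against 922, 784 and 905 in 46C-Ctrl. The groups did not overlap, and the log2 fold change was -0.97 (SE 0.084, adjusted p = 6.53e-05, limma). Wnt2b, a relative of Wnt2, had 34.4 to 42.3 in the libraries labelled Zhx1-KO, against 91.7 to 109 in 46C-Ctrl (log2 fold change -1.38, adjusted p = 0.000545, limma). Wnt8a, a ligand of the primitive streak, had 107 to 130.5 in the libraries labelled Zhx1-KO, against 138 to 192 in 46C-Ctrl (log2 fold change -0.53, adjusted p = 0.0290, limma). The call of Wnt8a did not hold with the replicate number as a block (adjusted p = 0.0650, limma) or without any 1 of 4 libraries (labelled Zhx1-KO 1 and 3, and 46C-Ctrl 1 and 3, adjusted p = 0.0789, 0.0847, 0.0961 and 0.0808, limma).

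Only 2 of the tested ligands were higher, and both were nearly absent in 46C-Ctrl. Wnt1, the ligand of the midbrain boundary and dorsal neural tube (chromosome 15, 98789857 to 98793837), had 145, 169 and 92.4 normalized counts in the libraries labelled Zhx1-KO, against 6.83, 3.11 and 3.16 in 46C-Ctrl. No control library came near those labelled Zhx1-KO. Wnt1 averaged 135 ± 39.1 in the libraries labelled Zhx1-KO and 4.37 ± 2.13 in 46C-Ctrl (SD, n = 3 each), with a log2 fold change of 4.69 (SE 0.38, adjusted p = 4.59e-05, limma). Wnt16, a ligand best known from bone (chromosome 6, 22288227 to 22298522), had 32.3, 58.7 and 38.7 in the libraries labelled Zhx1-KO, against 1.95, 4.14 and 8.44 in 46C-Ctrl. Again the groups were apart (log2 fold change 3.03, SE 0.51, adjusted p = 0.00174, limma). Wnt1, Wnt16, Sfrp4 and Rspo4 reached a mean of 10 through the libraries labelled Zhx1-KO alone, so their being higher is partly built into their being tested.

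The other 5 tested ligands did not pass. Wnt3a, the relative of Wnt3 needed for somites, was low, at 7.05, 11.1 and 18.5 in the libraries labelled Zhx1-KO, against 20.5, 12.4 and 16.9 in 46C-Ctrl, and the groups overlapped (log2 fold change -0.48, 95% interval -1.51 to 0.55, adjusted p = 0.400, limma). Wnt9a, its neighbour 16.175 kb away on chromosome 11, was close to level, at 243, 232 and 257 in the libraries labelled Zhx1-KO, against 242, 272 and 204 in 46C-Ctrl (log2 fold change 0.036, 95% interval -0.26 to 0.33, adjusted p = 0.833, limma). Wnt5b was listed at 0 in a library of each group, with 0, 144 and 106 in the libraries labelled Zhx1-KO, against 103, 0 and 58.00 in 46C-Ctrl. A value of 0 between such neighbours can be a failed estimate, and 27 genes among libraries labelled Zhx1-KO and 40 in 46C-Ctrl held such a 0 beside 100 or more counts in a sister library. Wnt7b had 36.97 to 41.3 in the libraries labelled Zhx1-KO, against 25.9 to 59.5 in 46C-Ctrl. Wnt10b, which lies 11.706 kb from Wnt1, had 28.2, 34.4 and 25.5 in the libraries labelled Zhx1-KO, against 4.88, 31.1 and 12.7 in 46C-Ctrl (adjusted p = 0.143, limma), and it was called higher without 46C-Ctrl replicate 2 (log2 fold change 1.75, adjusted p = 0.0186, limma). Of the 2 untested ligands not yet given, Wnt7a had 1.01, 6.07 and 0.880 in the libraries labelled Zhx1-KO, against 5.85, 0 and 8.44 in 46C-Ctrl. Wnt8b had 3.02, 20.2 and 9.68 in the libraries labelled Zhx1-KO, against 0.975, 2.07 and 0 in 46C-Ctrl.

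**Figure D2:**
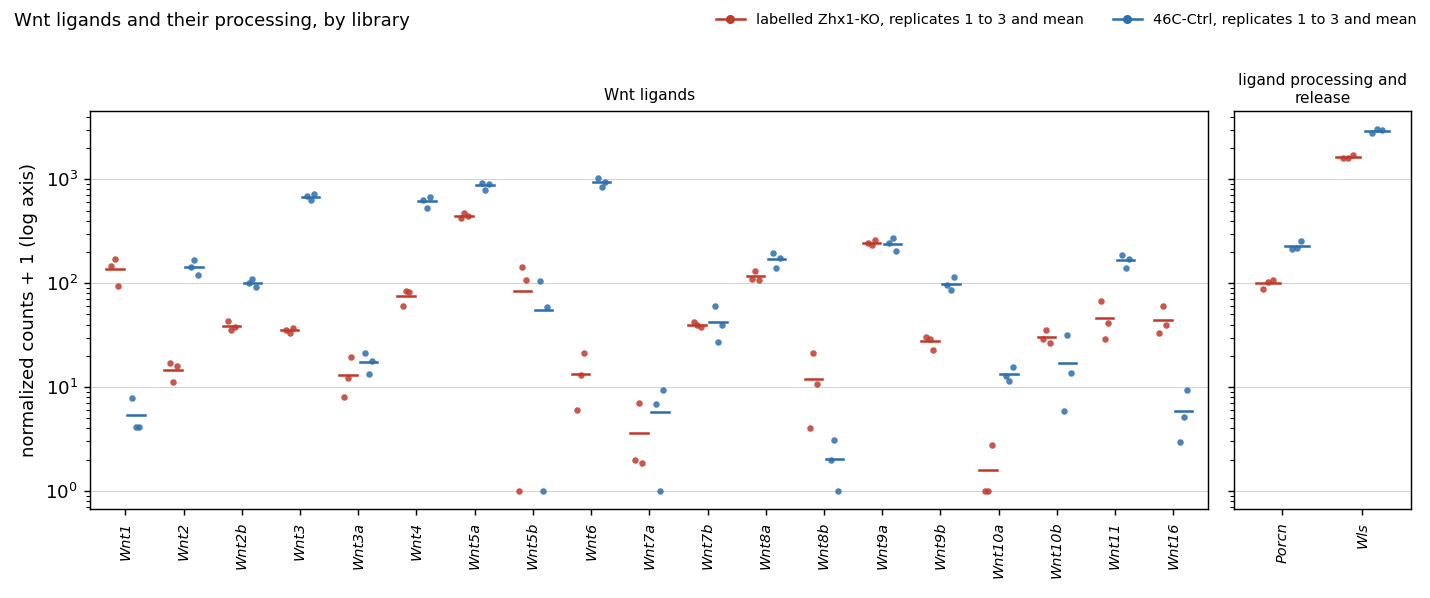
Counts of each Wnt ligand and of Porcn and Wls in every library, normalized, with 1 added, on a log axis (points, red for the 3 labelled Zhx1-KO and blue for 46C-Ctrl, with a line at each group's mean). The blue points lie well above the red ones for Wnt2, Wnt3, Wnt4 and Wnt6, the red ones well above the blue for Wnt1 and Wnt16, and Wnt5b has a point at 0 counts in both groups.

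The order of the ligands by level per kb of exon differed between the groups. In the libraries labelled Zhx1-KO, Wnt9a held 16.03% to 21.1% of the ligand sum, Wnt8a 16.2% to 18.03%, Wnt1 10.2% to 17.7% and Wnt5a 13.8% to 15.7%. Wnt5b held 0%, 12.5% and 10.6% in replicates 1 to 3 of that group. If its 0 is a failed estimate, the other shares of replicate 1 are too high. Neighbours in the order Wnt9a, Wnt8a, Wnt1 and Wnt5a had overlapping ranges, although Wnt8a lay above Wnt1 in each of these libraries. Their differences were not tested. In 46C-Ctrl, Wnt6 held 33.1% to 34.1% of the sum, Wnt3 16.5% to 18.1%, Wnt4 10.95% to 12.5% and Wnt5a 8.63% to 8.95%. Wnt6 was first in every control library and held 0.665% to 2.44% in the libraries labelled Zhx1-KO. Wnt9a, which did not pass the test, thus took a larger share of a smaller sum.

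Both genes of ligand processing were lower. Porcn, the enzyme that attaches the lipid (chromosome X, 8193848 to 8206525), had 86.7, 102 and 106 normalized counts in the libraries labelled Zhx1-KO, against 214, 216 and 255 in 46C-Ctrl. Wls, the carrier that brings ligands to the surface (chromosome 3, 159839672 to 159938664), had 1608, 1599.8 and 1710.1 in the libraries labelled Zhx1-KO, against 2757, 3040.5 and 2944 in 46C-Ctrl. Neither gene's groups overlapped. The log2 fold changes were -1.21 for Porcn (SE 0.14, adjusted p = 0.000269, limma) and -0.83 for Wls (SE 0.056, adjusted p = 1.97e-05, limma).

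All 10 Frizzled receptors were called, 6 higher and 4 lower, with a median log2 fold change of 0.33. Per kb of exon the receptors summed to 3666 to 3732 normalized counts in the libraries labelled Zhx1-KO, against 2499 to 2704 in 46C-Ctrl. Fzd2 and Fzd7 together made up most of that sum in both groups, and they exchanged places at the top.

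Fzd2 (chromosome 11, 102604396 to 102608058) had 7010.4, 7106 and 6735 normalized counts in the libraries labelled Zhx1-KO, against 3015, 2948 and 3014 in 46C-Ctrl. The groups were tight and apart, with a log2 fold change of 1.22 (SE 0.043, adjusted p = 1.04e-06, limma), on a chromosome whose other tested genes had a median of 0.42. Fzd7, a receptor of early mesoderm and stem cells and a close relative of Fzd2, had 3877, 3893 and 3907 in the libraries labelled Zhx1-KO, against 4698, 4180.3 and 4499 in 46C-Ctrl. Its difference was small, with no overlap (log2 fold change -0.19, adjusted p = 0.0164, limma), and the call was lost with quantile normalization (log2 fold change -0.092, adjusted p = 0.173, limma), in limma without a trend, and without 46C-Ctrl replicate 1 or 3 (adjusted p = 0.0659, 0.0545 and 0.0525, limma). By level per kb of exon, Fzd2 held 50.2% to 51.98% of the Frizzled sum in the libraries labelled Zhx1-KO and 30.4% to 32.2% in 46C-Ctrl. Fzd7 held 23.02% to 23.5% in the libraries labelled Zhx1-KO and 36.9% to 38.4% in 46C-Ctrl.

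Fzd5, a receptor needed for yolk sac vessels and the eye in mice (chromosome 1, 64730558 to 64737751), had 2015, 1995 and 2124 normalized counts in the libraries labelled Zhx1-KO, against 826, 797 and 854 in 46C-Ctrl. There was no overlap, and the log2 fold change was 1.31 (SE 0.055, adjusted p = 2.09e-06, limma). Fzd9 (chromosome 5, 135248938 to 135251230) had 83.6, 88.99 and 113 in the libraries labelled Zhx1-KO, against 38.03, 39.3 and 46.4 in 46C-Ctrl, again without overlap (log2 fold change 1.18, SE 0.20, adjusted p = 0.00183, limma). Fzd10 (chromosome 5, 128600844 to 128604093) was the receptor with the largest change in either direction. It had 109, 86.97 and 100.3 in the libraries labelled Zhx1-KO, against 457, 419 and 403 in 46C-Ctrl. Every control library was far above those labelled Zhx1-KO, and Fzd10 fell by 2.10 on the log2 scale (SE 0.12, adjusted p = 9.21e-06, limma).

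The other Frizzled receptors changed less. Fzd3, a receptor that guides axon tracts, had 1624 to 1807 normalized counts in the libraries labelled Zhx1-KO, against 816 to 1042 in 46C-Ctrl (log2 fold change 0.94, adjusted p = 0.000142, limma). Fzd4, a receptor that also binds norrin and acts in retinal vessels, had 939 to 1010.4 in the libraries labelled Zhx1-KO, against 760.3 to 805 in 46C-Ctrl (log2 fold change 0.29, adjusted p = 0.00490, limma). Fzd8 had 489 to 536 in the libraries labelled Zhx1-KO, against 344 to 451 in 46C-Ctrl (log2 fold change 0.37, adjusted p = 0.0223, limma). These 3 were higher without overlap, although the call of Fzd8 was lost without the library labelled Zhx1-KO 1 or 2 or 46C-Ctrl replicate 3 (adjusted p = 0.0723, 0.0534 and 0.0566, limma). Fzd1 was lower, at 693 to 758 in the libraries labelled Zhx1-KO, against 838 to 1012 in 46C-Ctrl (log2 fold change -0.32, adjusted p = 0.0151, limma), and its call was lost with quantile normalization and without the library labelled Zhx1-KO 1 (adjusted p = 0.0626 and 0.0520, limma). Fzd6, a receptor of planar polarity in skin, had 156 to 227 in the libraries labelled Zhx1-KO, against 248 to 304 in 46C-Ctrl (log2 fold change -0.45, adjusted p = 0.0481, limma). It stood at the threshold, and 11 of 18 other settings ended its call, among them edgeR (adjusted p = 0.0609), DESeq2 (adjusted p = 0.0510) and leaving out any 1 of 5 libraries (all but the library labelled Zhx1-KO 2, adjusted p from 0.0610 to 0.146, limma).

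**Figure D3:**
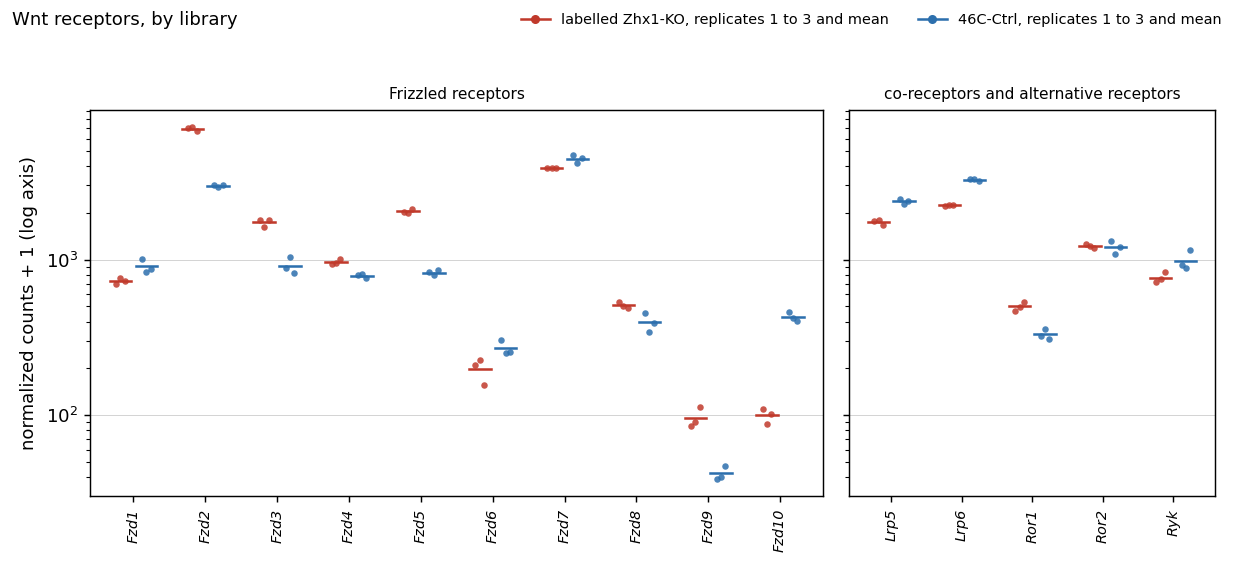
Counts of each Frizzled receptor (left) and of the co-receptors and alternative receptors (right) in every library, normalized, with 1 added, on a log axis, with points in red for the 3 libraries labelled Zhx1-KO and in blue for 46C-Ctrl and a line at each group's mean. Fzd2 and Fzd5 stand clearly higher in red and Fzd10 clearly higher in blue, while the points of Ror2 overlap.

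**Figure D4:**
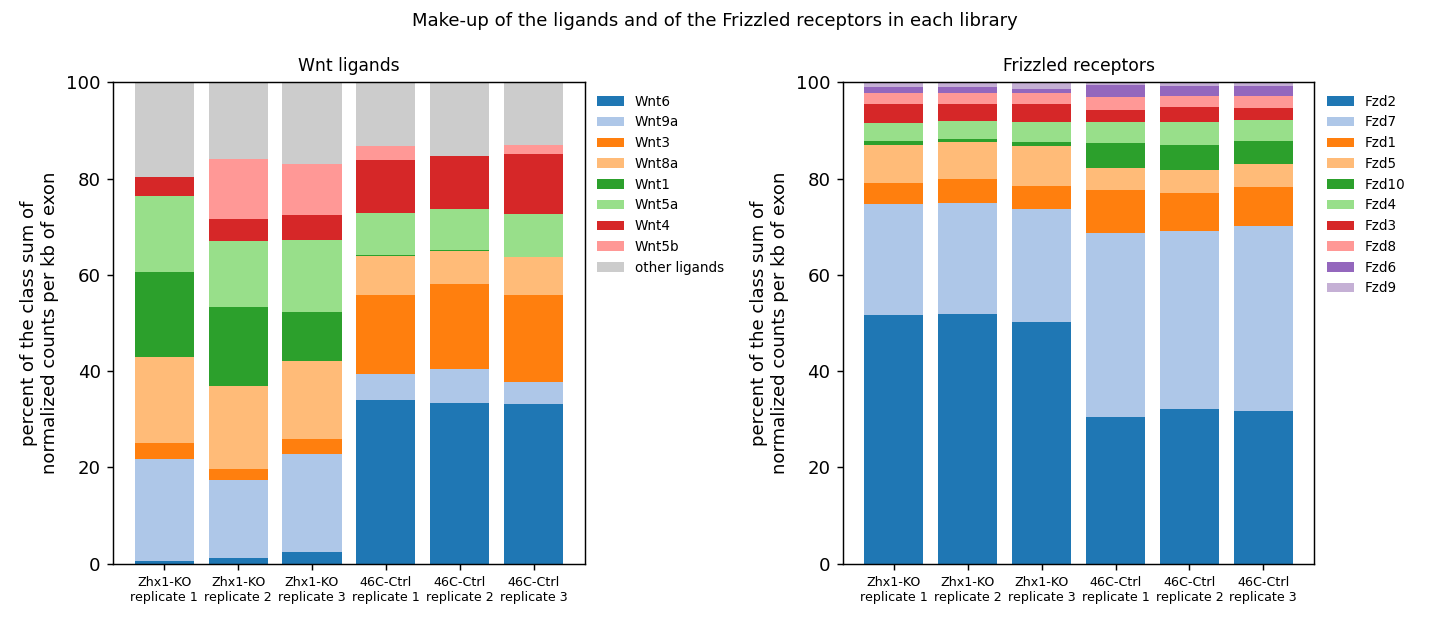
Share of the class sum, in percent of normalized counts per kb of exon, that each Wnt ligand (left) and each Frizzled receptor (right) held in every library, with those labelled Zhx1-KO as the first 3 bars of each panel and 46C-Ctrl as the last 3. Grey on the left panel stands for all other ligands, Wnt6 takes 0.665% to 2.44% in the libraries labelled Zhx1-KO and 33.1% to 34.1% in 46C-Ctrl, and Fzd2 takes 50.2% to 51.98% in the libraries labelled Zhx1-KO and 30.4% to 32.2% in 46C-Ctrl.

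Of the 5 co-receptors and alternative receptors, 1 was higher and 3 lower, and 1 did not pass. Lrp6, the co-receptor that Wnt ligands bring to Frizzled to stabilize β-catenin (chromosome 6, 134446476 to 134566965), had 2217, 2231 and 2249.7 normalized counts in the libraries labelled Zhx1-KO, against 3301, 3312 and 3214 in 46C-Ctrl. The groups were tight and did not overlap (log2 fold change -0.55, SE 0.042, adjusted p = 3.45e-05, limma). Lrp6 lies on chromosome 6 between 110 and 140 Mb, where 214 other tested genes had a median log2 fold change of -0.58, close to its own. Lrp5, its relative on chromosome 19, had 1771, 1806 and 1672 in the libraries labelled Zhx1-KO, against 2469, 2272 and 2388 in 46C-Ctrl, also lower without overlap (log2 fold change -0.44, SE 0.055, adjusted p = 0.000395, limma). Ryk, a receptor with an inactive kinase domain, had 719.6 to 829 in the libraries labelled Zhx1-KO, against 882 to 1147 in 46C-Ctrl (log2 fold change -0.35, adjusted p = 0.0278, limma). Its call was lost in 5 of 18 settings, among them without the library labelled Zhx1-KO 1 or 2 or 46C-Ctrl replicate 3 (adjusted p = 0.0862, 0.0769 and 0.0606, limma).

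Ror1 and Ror2 are tyrosine kinase-like receptors that bind Wnt5a. Ror1 had 467, 497 and 534 normalized counts in the libraries labelled Zhx1-KO, against 323, 359 and 309 in 46C-Ctrl, higher without overlap (log2 fold change 0.59, SE 0.093, adjusted p = 0.00120, limma). Ror2 had 1267, 1217 and 1182 in the libraries labelled Zhx1-KO, against 1320.5, 1094 and 1213 in 46C-Ctrl, and the groups overlapped (log2 fold change 0.019, 95% interval -0.16 to 0.20, adjusted p = 0.858, limma). The difference between both fold changes was not tested. By level per kb of exon, Ror2 led this class in both groups, with 31.3% to 33.8% of its sum in the libraries labelled Zhx1-KO and 26.05% to 29.2% in 46C-Ctrl.

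The secreted antagonists that bind Wnt ligands were mostly higher. Of 5 tested, 4 were higher and Sfrp5 was lower, with a median log2 fold change of 1.06. Per kb of exon they summed to 1201 to 1212 normalized counts in the libraries labelled Zhx1-KO, against 564 to 655 in 46C-Ctrl.

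Sfrp1, a secreted Frizzled-related protein (chromosome 8, 23411502 to 23449632), was the most abundant of them per kb in both groups. It had 2541, 2573 and 2662 normalized counts in the libraries labelled Zhx1-KO, against 1254, 1168 and 1309.8 in 46C-Ctrl. The groups were far apart for their spread, and the log2 fold change was 1.06 (SE 0.058, adjusted p = 6.87e-06, limma). Sfrp2, its relative on chromosome 3, had 606, 583 and 623 in the libraries labelled Zhx1-KO, against 261, 227 and 262 in 46C-Ctrl, also without overlap (log2 fold change 1.27, SE 0.088, adjusted p = 2.10e-05, limma). Frzb, another protein of this family, had 881 to 1011 in the libraries labelled Zhx1-KO, against 494 to 622 in 46C-Ctrl (log2 fold change 0.78, adjusted p = 0.000424, limma).

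Sfrp4 was low and had 21.2, 19.2 and 31.7 normalized counts in the libraries labelled Zhx1-KO, against 2.93, 2.07 and 3.16 in 46C-Ctrl. The groups did not overlap (log2 fold change 2.73, SE 0.44, adjusted p = 0.00139, limma). Sfrp5, known from the anterior endoderm and the edge of the early heart field, ran the other way, at 42.2 to 56.4 in the libraries labelled Zhx1-KO, against 65.2 to 109 in 46C-Ctrl (log2 fold change -0.92, adjusted p = 0.0164, limma). Its call was lost without any 1 of 4 libraries (labelled Zhx1-KO 2 and 3, and 46C-Ctrl 1 and 3, adjusted p from 0.0505 to 0.0575, limma). Wif1, a Wnt-binding inhibitor outside this family, was below the level for testing, at 24.2, 4.04 and 11.4 in the libraries labelled Zhx1-KO, against 0, 11.4 and 0 in 46C-Ctrl, and its groups overlapped.

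Of the 5 tested Dkk and Kremen genes, 2 were higher and 2 lower, and Dkk2 did not pass. Dkk1, the inhibitor that binds Lrp5 and Lrp6 (chromosome 19, 30545863 to 30549665), had the highest level per kb of this class in both groups. It had 527 to 596 normalized counts in the libraries labelled Zhx1-KO, against 856 to 906 in 46C-Ctrl (log2 fold change -0.62, adjusted p = 0.000272, limma). Dkk3, the most divergent of the family, was higher, at 198 to 223 in the libraries labelled Zhx1-KO, against 131 to 133 in 46C-Ctrl (log2 fold change 0.67, adjusted p = 0.00146, limma). Dkk2 was low, at 21.2, 24.3 and 14.1 in the libraries labelled Zhx1-KO, against 14.6, 25.9 and 25.3 in 46C-Ctrl, with overlapping groups (log2 fold change -0.13, 95% interval -0.99 to 0.73, adjusted p = 0.793, limma).

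The Kremen receptors, which bind Dkk proteins and take Lrp6 off the surface, ran in opposite directions. Kremen1 (chromosome 11, 5191552 to 5261558) had 1176, 1218 and 1169 normalized counts in the libraries labelled Zhx1-KO, against 844, 675 and 838 in 46C-Ctrl. It was higher without overlap (log2 fold change 0.60, SE 0.093, adjusted p = 0.00113, limma), on the chromosome whose other genes had a median of 0.42. Kremen2 (chromosome 17, 23741197 to 23745833) had 14.1, 11.1 and 10.6 in the libraries labelled Zhx1-KO, against 23.4, 40.4 and 58.00 in 46C-Ctrl. The control libraries were spread widely, and each was higher than those labelled Zhx1-KO (log2 fold change -1.60, SE 0.39, adjusted p = 0.0101, limma). The antisense gene 9530082P21Rik shares 200 exon bases with Kremen2 and had 34.3, 37.4 and 28.2 in the libraries labelled Zhx1-KO, against 11.7, 25.9 and 18.98 in 46C-Ctrl. Use of the strand in counting was not given in the sources used here, so reads from the shared bases may belong to either gene.

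Of the R-spondins and their partners, Rspo1, Rspo3 and Rspo4 changed by over 2-fold, and Lgr4 was the only receptor or ligase called. Among the 9 tested, 2 were higher and 2 lower, with 5 not past the test, and per kb of exon their sum was 397 to 407 normalized counts in the libraries labelled Zhx1-KO, against 403 to 424 in 46C-Ctrl. Rspo1 (chromosome 4, 124986430 to 125009099), known for its part in ovary development, had 162, 217 and 206 in the libraries labelled Zhx1-KO, against 24.4, 26.9 and 36.9 in 46C-Ctrl. The groups were far apart (log2 fold change 2.70, SE 0.22, adjusted p = 4.36e-05, limma). Rspo3, the R-spondin needed for vessels of the placenta in mice (chromosome 10, 29452416 to 29535867), had 58.5, 50.6 and 51.9 in the libraries labelled Zhx1-KO, against 253, 198 and 228 in 46C-Ctrl. It was lower in every library labelled Zhx1-KO, and it fell by 2.05 on the log2 scale (SE 0.15, adjusted p = 3.02e-05, limma).

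The shares of Rspo1 and Rspo3 ran in opposite directions. By level per kb of exon, Rspo1 held 21.1% to 28.1% of the class sum in the libraries labelled Zhx1-KO and 2.96% to 4.72% in 46C-Ctrl. Rspo3 held 4.10% to 4.77% in the libraries labelled Zhx1-KO and 15.7% to 19.3% in 46C-Ctrl. Rspo4, which acts in nail growth, was low and had 27.2, 14.2 and 33.4 normalized counts in the libraries labelled Zhx1-KO, against 2.93, 2.07 and 2.11 in 46C-Ctrl, without overlap (log2 fold change 2.87, SE 0.49, adjusted p = 0.00187, limma). Rspo2 had 15.1, 19.2 and 14.1 in the libraries labelled Zhx1-KO, against 11.7, 13.5 and 13.7 in 46C-Ctrl, higher without overlap yet not past the test (log2 fold change 0.29, 95% interval -0.49 to 1.07, adjusted p = 0.506, limma).

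Lgr4, a receptor of R-spondins (chromosome 2, 109917647 to 110014257), had the highest level per kb of this class in both groups, with 1229, 1155 and 1213 normalized counts in the libraries labelled Zhx1-KO, against 1456, 1463 and 1405 in 46C-Ctrl. It was slightly lower without overlap (log2 fold change -0.27, SE 0.053, adjusted p = 0.00389, limma). Lgr5, the stem cell marker of the gut and itself a Wnt target, had 134, 123 and 166 in the libraries labelled Zhx1-KO, against 179, 164 and 229.9 in 46C-Ctrl, and the groups overlapped (log2 fold change -0.43, 95% interval -0.83 to -0.023, adjusted p = 0.0732, limma). It was called lower in 3 of 18 other settings, with quantile normalization, with the replicate number as a block and without the library labelled Zhx1-KO 3 (adjusted p = 0.0408, 0.0352 and 0.0468, limma). Lgr6 was low, at 17.1, 17.2 and 15.8 in the libraries labelled Zhx1-KO, against 14.6, 12.4 and 13.7 in 46C-Ctrl, without overlap, and passed only in limma without a trend (adjusted p = 0.488 with the trend and 0.0383 without it, limma). The ligases that remove Frizzled from the surface did not pass. Znrf3 had 314, 301 and 277 in the libraries labelled Zhx1-KO, against 338, 332 and 267 in 46C-Ctrl (log2 fold change -0.064, 95% interval -0.34 to 0.21, adjusted p = 0.680, limma). Rnf43 had 45.8 to 102 in the libraries labelled Zhx1-KO, against 66.4 to 111 in 46C-Ctrl, with overlap (log2 fold change -0.36, 95% interval -1.13 to 0.41, adjusted p = 0.394, limma).

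**Figure D5:**
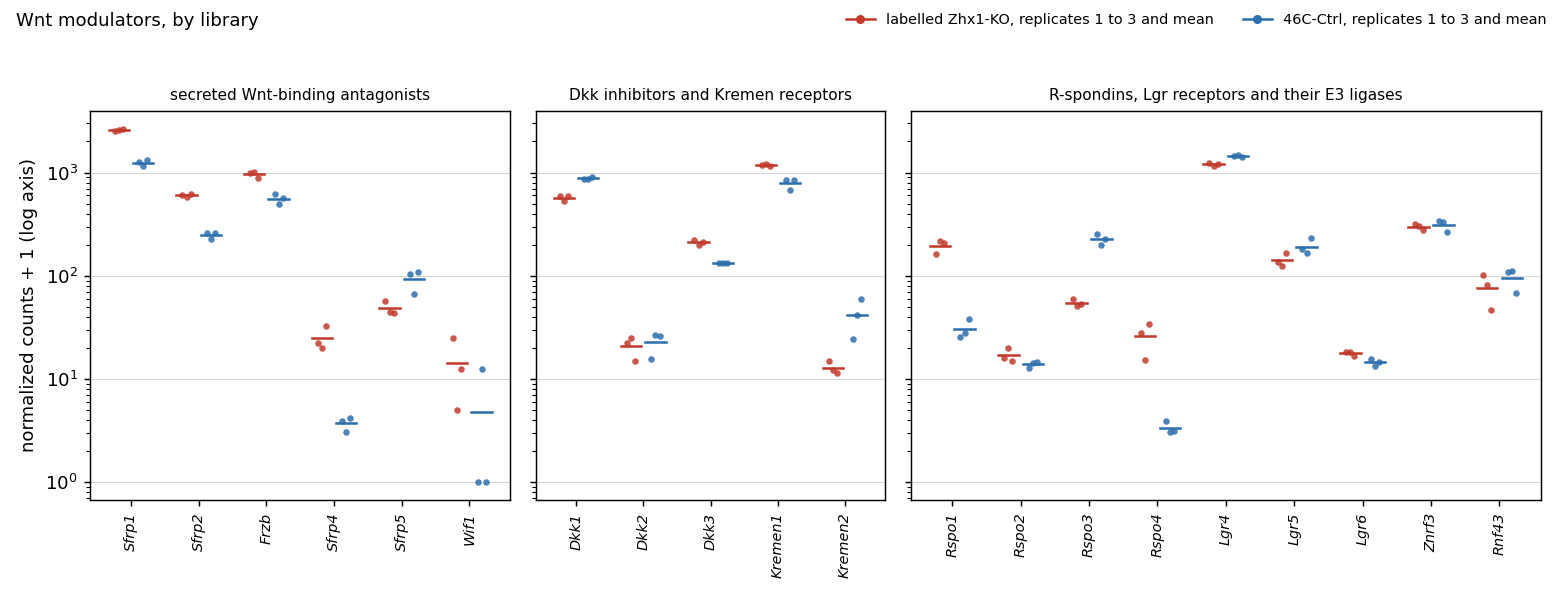
Counts of the secreted antagonists, the Dkk and Kremen genes, and the R-spondins with their receptors and ligases in every library, normalized, with 1 added, on a log axis, with points in red for the 3 libraries labelled Zhx1-KO and in blue for 46C-Ctrl and a line at each group's mean. Sfrp1, Sfrp2, Sfrp4, Rspo1 and Rspo4 stand higher in red, Rspo3 and Kremen2 stand higher in blue, and Lgr4 and Znrf3 lie nearly level.

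Of the 52 tested genes, 10 lay on chromosome 11 or on chromosome 6 from 110 to 140 Mb. These regions were chosen because an earlier analysis of these same data had found their medians shifted. The 8 tested Wnt genes of chromosome 11 (Fzd2, Kremen1, Rnf43, Wnt3, Wnt3a, Wnt9a, Wnt9b and Znrf3) were split, with 2 higher, 2 lower, 4 that did not pass and a median log2 fold change of -0.21, against 0.42 for the other 1179 genes. On chromosome 6 from 110 to 140 Mb lay Lrp6 and Wnt5b. The 42 Wnt genes elsewhere had 15 higher and 20 lower and a median of -0.16, against -0.017 for 13927 other genes. When the libraries were rescaled on genes outside chromosomes 11 and Y and this segment, 17 of the 52 were higher and 22 lower. The part of these shifts in the values of single genes was not tested.

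The rest of the pathway was counted on lists chosen by function. As background for these lists and the marker lists below, 52.0% of all genes tested were called, 25.6% higher and 26.4% lower. Of 29 genes that carry or hold back the β-catenin signal inside the cell, 7 were higher and 12 lower, and 10 did not pass, with a median log2 fold change of -0.068. As the list mixes both kinds, these counts give no direction of the signal. Lef1, a nuclear partner of β-catenin, had 138, 200.2 and 139 normalized counts in the libraries labelled Zhx1-KO, against 630.0, 441 and 497 in 46C-Ctrl (log2 fold change -1.72, adjusted p = 0.000191, limma). Bcl9l, another nuclear cofactor, averaged 545 ± 65.05 in the libraries labelled Zhx1-KO and 1662 ± 130.3 in 46C-Ctrl (SD, n = 3 each), with a fold change of -1.61 on the log2 scale (adjusted p = 1.27e-05, limma). Among the 7 higher genes was Ctnnb1, the gene of β-catenin itself (log2 fold change 0.34, adjusted p = 0.000510, limma). Of 16 planar polarity genes, 5 were higher and 6 lower while 5 did not pass. Daam2, a formin of that branch, had a log2 fold change of -2.72, while Celsr2 was higher, at 1.04 (adjusted p = 1.87e-05 and 2.35e-05, limma). Of 17 other extracellular Wnt regulators, 4 were higher and 9 lower, and 4 did not pass. Here, 1 of the higher genes (Sost) and 2 of the lower (Notum and Shisa3) had a mean under 10 in the group where they were low. In the same list, Shisa2, which retains Frizzled inside the cell, was higher, with a log2 fold change of 1.10, while the glypican Gpc4 was lower, at -1.41 (adjusted p = 3.06e-06 and 3.06e-06, limma).

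Of 11 tested genes known to be induced by Wnt signalling, 1 was higher and 8 lower, and 2 did not pass, with a median log2 fold change of -0.81. Of the 8, Notum had a mean under 10 in the libraries labelled Zhx1-KO. Lef1, Notum and Apcdd1 were also counted in the lists above, and T and Tbx6 in the marker lists below, so these lists are not separate. Cdx2, a homeobox gene of the posterior embryo, had 16.1, 18.2 and 18.5 normalized counts in the libraries labelled Zhx1-KO, against 348, 299 and 383 in 46C-Ctrl. Sp5, a direct β-catenin target in mesoderm, had 213, 242 and 241 in the libraries labelled Zhx1-KO, against 995, 907 and 1025 in 46C-Ctrl, and Axin2, the feedback inhibitor often read as a measure of β-catenin signalling, had 535, 541 and 499 in the libraries labelled Zhx1-KO, against 939, 868 and 958 in 46C-Ctrl. None of these 3 genes' groups overlapped. The log2 fold changes were -4.21 for Cdx2, -2.07 for Sp5 and -0.81 for Axin2 (adjusted p = 1.76e-06, 2.09e-06 and 5.89e-05, limma). The higher gene was Nkd2, a feedback inhibitor that binds Dishevelled (log2 fold change 1.13, adjusted p = 0.00235, limma).

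Markers of several cell types also differed between the groups. Of 10 primitive streak and nascent mesoderm markers, 9 were lower, 0 were higher and Mesp2 did not pass, and their summed level was 662 to 716 normalized counts in the libraries labelled Zhx1-KO, against 6843 to 7034 in 46C-Ctrl. Mixl1, a defining gene of the streak, was near 0, at 3.02, 2.02 and 0.880 in the libraries labelled Zhx1-KO, against 483, 456 and 507 in 46C-Ctrl. Endoderm markers were also mostly lower (8 lower, 1 higher and 2 not past the test), summing to 2733 to 2975 in the libraries labelled Zhx1-KO, against 8156 to 8574 in 46C-Ctrl. Sox7 was the higher one. Foxa2, which did not pass, averaged 660 in the libraries labelled Zhx1-KO and 717 in 46C-Ctrl. Hnf4a, the other, was listed at 0 in 46C-Ctrl replicate 1, beside 171 and 165 in replicates 2 and 3. Neural markers were mostly higher (9 higher, 1 lower and 1 not past the test), summing to 4843 to 4905 in the libraries labelled Zhx1-KO, against 3286 to 3640 in 46C-Ctrl, where Pax6 was listed at 0 in every library. Nes, the lower one, had the highest mean of the list, at 1652 in the libraries labelled Zhx1-KO and 2804 in 46C-Ctrl. It made up most of the 46C-Ctrl sum, so the sums understate the rise of the other markers. Endothelial markers were higher in 8 of 10 (1 lower and 1 not past the test), summing to 4687 to 5102 in the libraries labelled Zhx1-KO, against 1370 to 1496 in 46C-Ctrl. The lower one, Sox17, was also counted among the endoderm markers. Of 6 paraxial mesoderm markers, 5 were higher and 0 lower, and Tbx6 did not pass, summing to 971 to 1062 in the libraries labelled Zhx1-KO, against 73.5 to 145 in 46C-Ctrl. Foxc2 made up most of the former sum, with a mean of 721 in the libraries labelled Zhx1-KO and 23.3 in 46C-Ctrl. In the same order, Tbx6 averaged 10.7 and 18.5. The untested ones were near 0 in both groups, with Msgn1 at 0.97 and 4.78, Meox2 at 3.57 and 1.74, and Myf5 at 2.23 and 1.73. Some of these markers had a mean under 10 in the group where they were low and reached the test only through the other group, so their direction is partly built into their being tested. These were 2 of the 9 lower streak and nascent mesoderm markers (Mixl1 and Mesp1), 2 of the 8 lower endoderm markers (Afp and Apoa1), 4 of the 9 higher neural markers (Six3, Pax6, Hesx1 and Pou3f3), 1 of the 8 higher endothelial markers (Emcn) and 2 of the 5 higher paraxial mesoderm markers (Uncx and Pax3). Without them, 7 streak and 6 endoderm markers were lower, and 5 neural, 7 endothelial and 3 paraxial mesoderm markers were higher. A further 3 paraxial mesoderm markers, 1 neural and 1 endoderm marker were below the level for testing. The part of these cell types in the Wnt results was not tested.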

How the data were processed

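The data are RNA-seq of CP cells, 3 libraries labelled Zhx1-KO and 3 of 46C-Ctrl, grouped by their GEO titles. The authors removed adapters with cutadapt 1.18, aligned with HISAT2 2.1.0 to GRCm38 (GENCODE M19) with the strand set, and computed FPKM with StringTie 1.3.4d. Cufflinks and DESeq2 are further tools in the submitters' processing notes. The table analysed holds a signal per gene, deposited by the authors as read counts over a factor for each library. The counting program was not given in the sources used here. In each library 100% of the values lay within 0.01 of a multiple of 1 step (0.880 to 1.05), with a largest distance of 4.37e-10, which gives 13769967 to 15940874 whole reads a library. A low gene of 10 reads thus carries a large counting error. The number of columns not used was 0, and FPKM and ChIP-seq data were not used here.

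Genes whose mean was 10 or more (15372) were tested with limma 3.58.1 (R 4.3.3), with a mean trend, on log2(value + 1), with no term but group, and with Benjamini-Hochberg adjustment over all of them. An exact permutation test of 3 libraries against 3 allows no p below 0.1, so none is given. Alternatives were quantile normalization, trimmed-mean rescaling, rescaling outside 2 shifted regions and chromosome Y, the pseudocount, the filter, limma without trend, edgeR 4.0.16 (quasi-likelihood) and DESeq2 1.42.0 on whole reads, stricter call rules, the replicate number as a block, and each library left out. The members and lists were chosen with earlier results of these data known. Full values are given for members called with a change of 2-fold or more (up to 8 a class), the member with the highest mean in each class, and uncalled members whose closest relative was called, with up to 4 genes of each other list in order of adjusted p considered for naming. Lef1, Nkd2 and Ctnnb1, outside that rule, were chosen after their values were seen, as were Isl1, Mesp2, Tbx6, Pax6, Mesp1, Afp, Apoa1, Hesx1, Pou3f3, Emcn, Pax3, Notum, Sost and Shisa3. T and Sox17 were named only for standing in several lists. Positions and exon lengths are from GENCODE M21 and promoters from RefSeq, both of GRCm38. At most 3.85% of the 50-base words of any member's exons (Wnt4) also occur in another gene.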

Additional observations from a re-analysis of the deposited data

How the results depend on the processing

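Of the 40 Wnt genes called, 33 kept their call under all 18 settings other than stricter call rules, wherever they were tested. A further 7 lost it under some, and none changed direction. The filter at a mean of at least 50 left 42 Wnt genes tested, and the called genes Wnt16, Sfrp4, Rspo4 and Kremen2 were not among them. The counts stayed within 14 to 18 higher and 18 to 24 lower over the 18 settings, edgeR and DESeq2 both giving 17 higher and 22 lower. Requiring 2-fold or more left 10 higher and 11 lower, and 1493 and 1207 over all genes, as that rule sets. Both groups use replicate numbers 1 to 3, but libraries of the same number did not deviate together (correlations 0.0042, -0.069 and 0.00059 over 15372 genes). With the replicate block, 17 were higher and 23 lower, and 3625 and 3749 over all genes, with the calls of Wnt8a lost and Lgr5 gained. Leaving out each library in turn gave 16 to 18 higher and 18 to 22 lower, and 3213 to 3756 and 3476 to 3889 over all genes. Genes that reversed had not been called. With each library left out in turn, the log2 fold change ran from -1.65 (without 46C-Ctrl 2) to 2.77 (without the library labelled Zhx1-KO 1) for Wnt5b, from -0.30 to 0.28 for Wnt7b, from -0.075 to 0.13 for Wnt9a, from -0.051 to 0.084 for Ror2 and from -0.38 to 0.087 for Dkk2. Wnt7b was also at 0.017 with rescaling outside the shifted chromosomes, and Wnt9a at -0.0049 with quantile normalization. The cause was not tested. With no filter on low values, Wnt10a was also lower (adjusted p = 0.00279, limma) and Wnt8b higher (adjusted p = 0.0357, limma). The scalings moved the median of all genes by at most 0.03 (log2). Depth limits Wnt7a, Wnt8b, Wnt10a and Wif1 most, at 2 to 41 reads a group.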
